A study of Danio rerio with 2 samples.

Results

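The genes described here are 10 members of the zebrafish Keap1-Nrf2 antioxidant pathway, measured in single pancreatic islet cells. They are keap1a and keap1b, which encode the sensor, nfe2l2a, which encodes Nrf2, gclc and gclm for glutathione synthesis, slc7a11 for cystine import, gpx4a and prdx1 for peroxide removal, hmox1a for heme breakdown, and sqstm1, which encodes the autophagy receptor p62. They were listed with earlier results of these data known, from the difference in their levels between the 2 genotypes, so every difference between genotypes below is a description and was given no test. All 10 are among the 24900 genes of the tables, and 9 of them had at least 1 count in a cell that passed the filter.

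Islet cells were taken from larvae at 7 days postfertilization (dpf). The control carried the reporter Tg(gcga:GFP) in a wild type background, and gcgr-/- larvae carried the same reporter with both glucagon receptor genes, gcgra and gcgrb, disrupted. The reporter drives GFP from the promoter of the proglucagon gene gcga, islets were picked by hand from larvae whose number is not given, and GFP-positive cells were sorted singly into plates. There was 1 sample per genotype, so no difference between genotypes has a replicate check, and the intervals below cover counting error only. Spread between cells is not covered, and copies made by PCR may be counted as separate reads, so those intervals are too narrow.

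Of 576 sequenced cells, 444 passed a filter of 500 or more genes and no more than 10% mitochondrial counts, 156 of 192 in the control and 288 of 384 in gcgr-/-. Their counts summed to 4760583 in the control and 10283390 in gcgr-/-, with a median of 22042 and 25522.5 counts per cell. The sorted cells were labelled as alpha cells, yet glucagon transcripts (gcga or gcgb) led the hormones in only 3 control cells against 106 gcgr-/- cells. A cell was placed by whichever of 8 hormone genes had the most counts, where that gene held at least 1% of them. By this rule ins led in 41 and 54 cells, sst1.1 in 36 and 52, sst1.2 in 29 and 29, and no hormone reached the limit in 31 and 27 cells, control first. A comparison of genotypes was made only within these last 4 kinds, which had at least 10 cells in each sample. The few cells led by sst2 (6 and 6), gip (7 and 2) or ghrl (3 and 12) stayed in the sums over all cells, and of these only the 12 ghrl-led cells of gcgr-/- are described as a kind. Hormone transcripts were not confined to their own kind: after each cell was thinned to 5000 counts, gcga was counted in 82.9% of control ins-led cells and 41.9% of control cells with no leading hormone. The disrupted genes could not check the labels, since their transcripts were almost absent: 13 counts of gcgra fell in 2 cells of the control and 23 in 3 cells of gcgr-/-, and gcgrb had 1 count in each sample.

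Cell names open with a letter, A and B in the control and C to F in gcgr-/-, and a longer prefix splits the cells into 24 sets of 24 cells, 8 in the control and 16 in gcgr-/-. The same 48 barcodes recur, each under 12 prefixes. What the letters and prefixes stand for is not given in the sources used here. None of them holds cells of both genotypes, so any effect of a letter or prefix and the effect of genotype cannot be told apart. Spread over prefixes shows how stable a level was within a sample, and prefixes are not replicates of a genotype.

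Among markers of other tissues, the summed level of 9 epithelial genes was 5170.4 counts per 1000000 counts (CPM) in the control and 804 CPM in gcgr-/-, with prefixes between 246 and 12494 CPM and between 204 and 3403 CPM, and none of the 9 at 0. Most of that control level came from cells with no leading hormone, which held 23572 CPM against 2370 CPM in gcgr-/-. The order was turned in sst1.1-led cells, with 445 and 1514 CPM, and in sst1.2-led cells, with 651 and 806 CPM. Ins-led cells held 709 and 587 CPM. The 13 acinar genes summed to 363 and 98.2 CPM, with cpa1, cel.1 and cel.2 at 0 in both samples, and the 7 liver genes to 15.1 and 215 CPM, with serpina1 at 0 in both. The blood and immune list and the endothelial list held at most 3.01 CPM. The part of these cells in the results below was not tested, apart from the values given without cells that held epithelial transcripts.

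Nrf2 is a transcription factor that is normally short-lived because Keap1, an adaptor of the Cullin-3 ubiquitin ligase, hands it over for degradation. Oxidants and electrophiles modify cysteines of Keap1, Nrf2 then accumulates, pairs with small Maf proteins and switches on genes for glutathione synthesis, peroxide removal and heme breakdown. In mammals p62 binds Keap1 and can carry it into autophagosomes, and the p62 gene is itself an Nrf2 target. Rodent islet beta cells are known for low levels of several peroxide-removing enzymes.

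Over all cells that passed, 6 of the 10 genes were at least 2-fold higher in gcgr-/- (keap1a, keap1b, gclc, sqstm1, gpx4a and prdx1) and none was at least 2-fold lower. Of all 9124 genes with at least 50 counts over both samples, 30.8% were at least 2-fold higher and 21.7% at least 2-fold lower. The members that reached 50 counts numbered 8, with a median log2 ratio of 2.51 beside 0.18 over all genes, and hmox1a and slc7a11 did not reach it. Since the genes were listed for this contrast, nothing is read from these counts.

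The 2 sensor genes were both higher in gcgr-/-. The level of keap1a by letter was 17.2 and 43.5 CPM in the control (A and B) and 103, 82.2, 100.5 and 129 CPM in gcgr-/- (C to F). All gcgr-/- letters lay above both control letters, as for 12.4% of all genes. Summed over cells, keap1a went from 27.1 to 104.8 CPM, 3.87-fold higher (95% counting interval 3.22 to 4.68), and this was 2.41-fold without letter A and 6.10-fold without letter B. Thinned to 5000 counts per cell, keap1a was counted in 5.81% of control cells (Clopper-Pearson 95% interval 2.69% to 10.7%) and in 26.3% of gcgr-/- cells (21.3% to 31.8%).

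The paralog keap1b was sparse in both samples. The control gave 9 counts from 4 cells and gcgr-/- gave 144 from 17 cells, which is 1.89 against 14.0 CPM and a ratio of 7.41 (3.79 to 16.5). Its letters read 2.69 and 0.558 CPM in the control and 4.36, 7.03, 24.95 and 16.1 CPM in gcgr-/-. All gcgr-/- letters thus lay above both control letters, as for 12.4% of all genes. A single cell held 30.6% of the keap1b counts of gcgr-/-, and the ratio was 25.1 without letter A and 5.10 without letter E.

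The transcript of Nrf2 itself did not follow the sensor genes. nfe2l2a stood at 328 and 260.1 CPM under the control letters and at 81.0, 222, 156 and 287 CPM under the gcgr-/- letters, so that letter F lay between the 2 control letters and the groups overlapped. The summed level went from 302 to 189 CPM, 1.60-fold lower (1.49 to 1.71), and its thinned share of cells from 32.9% to 28.4%. Of the 16 gcgr-/- prefixes, 7 lay below all 8 control prefixes and 1 control prefix lay above all gcgr-/- prefixes. The share of all genes with such partial counts was not taken. For no member did every gcgr-/- letter or prefix lie below every control one, as for 11.3% and 0.0767% of all genes.

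sqstm1 was higher under every gcgr-/- prefix. By letter it stood at 176 and 238 CPM in the control and at 1649, 1667, 1275 and 1442 CPM in gcgr-/-. By prefix the control ranged from 61.1 to 326 CPM with a median of 195 CPM, and gcgr-/- from 847 to 2817 CPM with a median of 1429 CPM. Every gcgr-/- prefix therefore lay above every control prefix, which held for 0.186% of all genes (17 of 9124) and, among the 10 members, only for sqstm1. As sqstm1 was listed for this contrast, that share is a description. The summed level went from 199.6 to 1490.5 CPM, 7.47-fold higher (6.99 to 7.98), and the ratio stayed between 6.26 and 9.40 over the 15 alternatives tried for it.

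The share of cells with an sqstm1 count moved with the level. Thinned to 5000 counts, 32.9% of control cells (25.6% to 40.9%) and 84.2% of gcgr-/- cells (79.4% to 88.2%) had at least 1 count. The difference of 51.3 percentage points was the largest of all 9124 genes, a rank that is a description only, since sqstm1 was listed for this contrast. Across single gcgr-/- cells the level ran from 0 to 14344 CPM with a median of 1137 CPM, and the control median was 0.

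**Figure D1:**
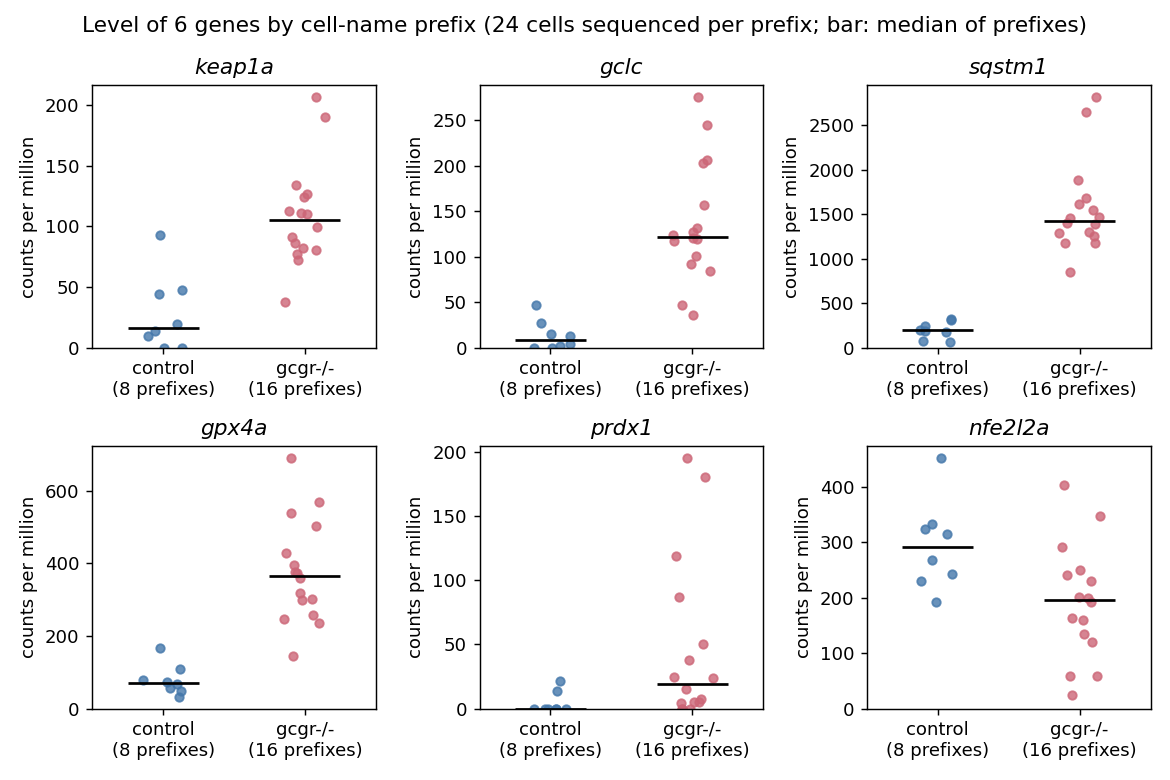
Level of 6 genes in CPM (linear axes from 0) under each cell-name prefix, with 8 control prefixes and 16 gcgr-/- prefixes. Each point sums the cells of 1 prefix that passed, and the bar is the median of the prefixes. For sqstm1 the control points end at 326 CPM and the gcgr-/- points start at 847 CPM, while for nfe2l2a the points of the genotypes overlap.

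The catalytic and the regulatory subunit of glutamate-cysteine ligase, the first step of glutathione synthesis, were not equally well measured. gclc, the catalytic subunit, stood at 9.77 and 14.5 CPM under the control letters and at 132, 113, 157 and 164 CPM under the gcgr-/- letters. Over all cells gclc went from 11.6 to 143 CPM, 12.4-fold higher (9.48 to 16.5), and 14 of 16 gcgr-/- prefixes lay above all control prefixes. How many of all genes reach 14 prefixes was not counted, so nothing is read from that number. The thinned share of cells with a gclc count was 4.52% in the control and 22.1% in gcgr-/-. gclm, the regulatory subunit, gave 14 counts from 3 cells of the control and 58 from 18 cells of gcgr-/-, 2.94 against 5.64 CPM. Its ratio of 1.92 (1.06 to 3.72) fell to 0.718 in the cells the authors kept. Without letter A the control had 0 counts, which gives 3.37-fold against the floor.

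The 2 members that encode peroxide-removing enzymes were both higher in gcgr-/-, and other such enzymes are given further below. gpx4a encodes a glutathione peroxidase that reduces lipid hydroperoxides, and it stood at 112 and 49.7 CPM under the control letters and at 348, 509, 386 and 319 CPM under the gcgr-/- letters. Over all cells gpx4a went from 88.4 to 386.5 CPM, 4.37-fold higher (3.95 to 4.84), with 15 of 16 gcgr-/- prefixes above all control prefixes. The share of all genes with 15 such prefixes was not counted either, so nothing is read from that number. Without letter A the gpx4a ratio was 7.78, and without letter B it was 3.46. prdx1, a peroxiredoxin that removes hydrogen peroxide, gave 19 counts from 2 cells of the control and 518 from 25 cells of gcgr-/-. The prdx1 letters read 4.72 and 2.79 CPM in the control and 72.7, 14.5, 46.8 and 65.0 CPM in gcgr-/-, with a ratio of 12.6 (8.0 to 21.1) over all cells. A single gcgr-/- cell held 25.3% of the prdx1 counts, and the ratio ran from 7.01 in the cells the authors kept to 68.5 with at least 750 genes per cell.

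The last pair, both among the best known Nrf2 targets in mammals, was barely counted. hmox1a, heme oxygenase, gave 11 counts from 3 cells of the control and 13 from 2 cells of gcgr-/-, 11 of these in 1 cell. slc7a11, the light chain of the cystine-glutamate exchanger, had 0 counts in all 576 sequenced cells. Among cells that passed, 0 of 156 control cells allows a share of cells with a count of up to 1.92% (3 cells of the total), and 0 of 288 gcgr-/- cells a share of up to 1.04%. Counting used coding sequence while libraries were primed at the 3′ end, so levels were not compared between genes, and these limits hold for counted reads, not for expression.

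By share of cells, 3 members (sqstm1, gpx4a and keap1a) were at least 20 percentage points higher in gcgr-/- and none was lower by that much, beside 0.69% and 0.0986% of all genes. keap1a lay just inside that limit, at 20.5 points, and gclc just outside it, at 17.6 points. The cells the authors kept after leaving out presumed beta and delta cells number 88 control and 197 gcgr-/- cells among those that passed. By leading hormone they still held 29 control and 44 gcgr-/- sst1.1-led cells, and 18 and 11 sst1.2-led cells. Glucagon-led cells numbered 2 and 101 among them, so the mix of kept cells also differed between genotypes. In those kept cells sqstm1 stood at 141 and 1329 CPM, and in the cells left out at 251 and 1718 CPM, so it was higher in gcgr-/- on both sides of that selection. keap1a in the kept cells stood at 7.60 and 118 CPM, and in the cells left out at 44.4 and 86.5 CPM.

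Since the genotypes differed in their mix of cells, the same values were taken within each kind. In ins-led cells 4 members were at least 2-fold higher in gcgr-/- (gclc, sqstm1, gpx4a and prdx1, beside 30.9% of genes) and nfe2l2a was lower (beside 28.7%). In sst1.1-led cells 5 were higher (keap1a, keap1b, gclc, sqstm1 and gpx4a, beside 39.1%) and nfe2l2a was lower (beside 22.3%). In sst1.2-led cells keap1a, gclc, sqstm1, gpx4a and prdx1 were higher (beside 36.9%) and none was lower (beside 25.6%). The same 5 were higher in cells with no leading hormone (beside 38.5%), and none was lower (beside 27.9%). In that kind 23 of 31 control cells but only 7 of 27 gcgr-/- cells held epithelial transcripts (at least 0.1% of counts). There gcga held 0.0159% of the control counts and 0.409% of the gcgr-/- counts. The cells with no leading hormone were therefore not alike in the 2 samples, which limits all ratios given for them. In each kind 6 of the 10 members reached 50 counts, and their median log2 ratio was 1.88, 3.56, 3.81 and 2.57 in that order of kinds, beside 0.00, 0.48, 0.28 and 0.31 over all genes. The ins-led count was 2 without letter C, and the count in cells with no leading hormone was 3 without letter F. The calls of prdx1 and keap1b rested on few cells, and so did some of those of keap1a and gclc given further below. In gcgr-/- the prdx1 counts came from 4 ins-led cells, 4 sst1.2-led cells and 3 cells with no leading hormone. A single cell held 71.0%, 67.6% and 52.5% of them, in that order. The control had 0 prdx1 counts in ins-led and sst1.2-led cells, so those ratios stand against the floor. The keap1b counts of gcgr-/- sst1.1-led cells came from 4 cells, and a single one held 47.8%.

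sqstm1 was higher in gcgr-/- in each of the 4 kinds. In ins-led cells it went from 378 to 2253 CPM, 5.96-fold (5.45 to 6.53), and in cells with no leading hormone from 172 to 1362 CPM, 7.91-fold (6.68 to 9.42), which was 5.08-fold without letter A and 12.6-fold without letter B. In sst1.1-led cells it went from 72.5 to 1193 CPM, 16.5-fold (13.4 to 20.5), which was 8.78-fold without letter A and 34.3-fold without letter B. In sst1.2-led cells it went from 105 to 1607 CPM, 15.3-fold (11.6 to 20.6). The thinned share of cells with an sqstm1 count was 14.3% to 43.9% over the 4 control kinds and 82.4% to 94.3% over the same kinds of gcgr-/-. How many of all genes have ranges this far apart was not counted, so nothing is read from them.

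keap1a was uneven across kinds in the control. Of its 129 control counts 105 lay in ins-led cells, where it stood at 73.4 CPM against 7.21 CPM in all other control cells, a ratio of 10.2 (6.49 to 16.6). Within control cells 20.3% of genes were at least 2-fold higher in ins-led cells. That level rested on 10 of 41 cells, 1 of which held 30.5% of it, and ins-led cells were the higher ones under only 5 of 8 prefixes. In the 6 gcgr-/- kinds with at least 10 cells keap1a ran from 72.3 CPM in glucagon-led cells to 197 CPM in sst1.1-led cells, with ghrl-led cells at 142 CPM.

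The keap1a ratio between genotypes was accordingly uneven across kinds. In ins-led cells the level was 73.4 and 81.5 CPM, a ratio of 1.11 (0.863 to 1.43), with letters at 52.1 and 104.1 CPM in the control and at 102, 141, 49.6 and 37.7 CPM in gcgr-/-. The letters of the genotypes overlapped, and the ratio ran from 0.783 without letter A to 3.09 after thinning. In sst1.1-led cells it was 9.35 and 197 CPM, 21.0-fold higher (11.9 to 41.1), with letters at 0 and 25.1 CPM in the control and at 97.9, 85.1, 189.7 and 387 CPM in gcgr-/-. In sst1.2-led cells there were 0 control counts and 150 gcgr-/- counts, at least 18.1-fold higher against a floor of 3 counts over the group, and in cells with no leading hormone 5 and 107 counts, 29.6-fold higher (12.3 to 92.9). Over the alternatives these 3 values ran from 7.83 (without letter A) to 57.2, from 4.83 to 24.7 and from 9.39 to 41.6. Without letter B the sst1.1-led value was 52.7. The control counts of keap1a came from only 2 sst1.1-led cells and from 1 cell with no leading hormone. The sst1.2-led value was 7.24 without letter A, 10.9 without letter B and 11.97 without letter F, and the no-hormone value 11.8 without letter A. Whether the ratio differed between kinds was not tested, because each kind has 1 sample per genotype.

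gclc was higher in gcgr-/- in all 4 kinds. In ins-led cells it went from 15.4 to 188 CPM, 12.2-fold (7.96 to 19.8), in sst1.1-led cells from 16.4 to 232 CPM, 14.2-fold (9.15 to 23.2), and in sst1.2-led cells from 8.24 to 125 CPM, 15.1-fold (5.81 to 56.2). Cells with no leading hormone had 0 control counts and 62 gcgr-/- counts, at least 28.6-fold higher. The control held only 4 to 22 gclc counts in the kinds where it had any, and its 4 sst1.2-led counts came from 1 cell. In gcgr-/- the counts of cells with no leading hormone came from 4 cells, 1 of which held 43.5%. A single sst1.1-led gcgr-/- cell held 40.3% of the gclc counts of that kind. Without letter A the sst1.1-led ratio was 6.18, without letter B 62.4 and without letter E 9.14. Over all alternatives the ratio ran from 3.09 to 119 in ins-led cells, from 8.06 (without letter A) to 24.8 in sst1.2-led cells and from 8.80 to 44.8 in cells with no leading hormone, the lowest ins-led and no-hormone values being those after thinning.

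gpx4a differed less within these 4 kinds than over all cells. Its ratio was 2.26 (1.87 to 2.74) in ins-led cells, 2.07 (1.68 to 2.56) in sst1.1-led cells, 3.02 (1.97 to 4.83) in sst1.2-led cells and 2.45 (1.80 to 3.37) in cells with no leading hormone. Without letter B it fell below 2-fold in 3 of the 4 kinds, to 1.74 in ins-led cells, 1.59 in sst1.1-led cells and 1.83 in cells with no leading hormone. It also fell below 2-fold without letter C in ins-led cells (1.95), without letters D and E in sst1.1-led cells (1.97 and 1.63) and without letter F in cells with no leading hormone (1.90). Beyond the letters, thinning took it to 1.56 in sst1.1-led and 1.93 in sst1.2-led cells, and in sst1.1-led cells it was 1.81 in the cells the authors kept and 1.83 with hormone genes left out of the total. All alternatives tried kept the ratio above 1, from 1.56 to 59.5 over the 4 kinds.

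**Figure D2:**
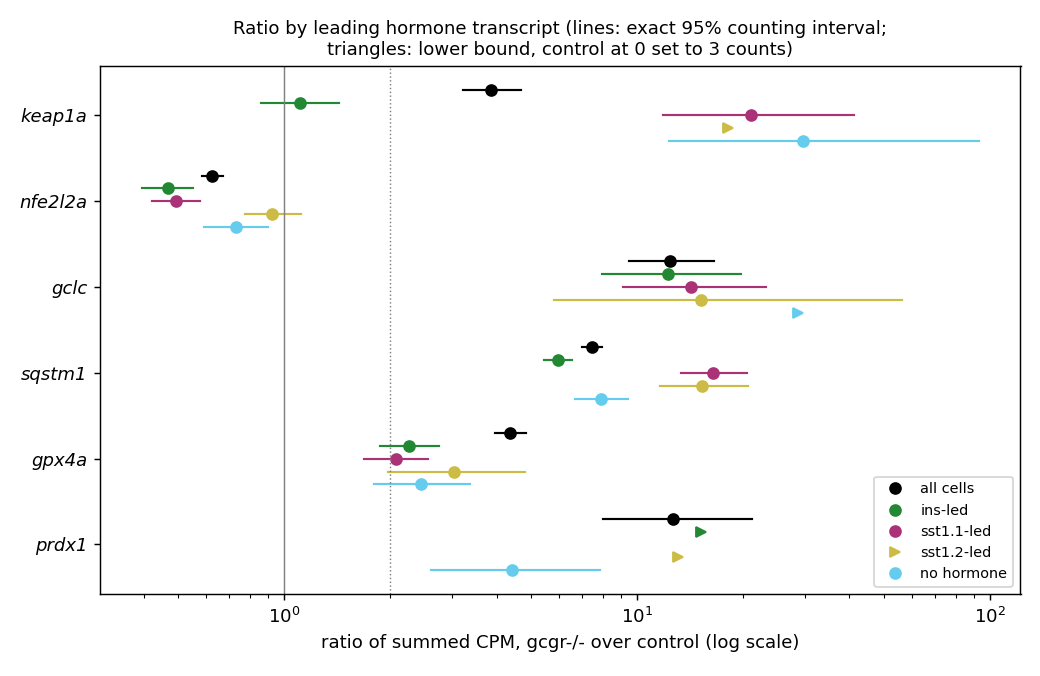
Ratio of summed CPM, gcgr-/- over control, on a log scale for 6 genes over all cells and within 4 kinds of cell, where the gene had at least 50 counts. Lines are exact 95% counting intervals, the dotted line marks 2-fold, and triangles mark lower bounds where the control had 0 counts. The ins-led point of keap1a lies at 1.11 while its other kinds lie at 18.1 or more, and every sqstm1 point lies at 5.96 or more.

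nfe2l2a moved in different directions by share of cells. In sst1.1-led cells its thinned share was 50.0% in the control (32.9% to 67.1%) and 17.6% in gcgr-/- (8.40% to 30.9%), a difference of -32.4 points, with letters at 47.1% and 52.6% in the control and at 15.4%, 21.4%, 16.7% and 16.7% in gcgr-/-. In sst1.2-led cells the shares were 21.4% (8.30% to 41.0%) and 48.3% (29.4% to 67.5%), a difference of 26.8 points, with letters at 33.3% and 7.69% in the control and at 42.9%, 50.0%, 50.0% and 50.0% in gcgr-/-. Each sst1.2-led letter of gcgr-/- held only 6 to 8 cells. How many of all genes have letters that separate by share within a kind was not counted, so nothing is read from these letters. In the main setting the summed levels did not repeat the second difference: the sst1.2-led ratio was 0.927 (0.774 to 1.11). That ratio ran from 0.612 (at least 750 genes per cell) to 1.90 (cells the authors kept), and was above 1 in 8 of 17 alternatives. The sst1.1-led level was 2.02-fold lower (1.73 to 2.37), with letters that overlapped. In ins-led cells the level was 2.14-fold lower (1.81 to 2.53) while the share was 26.8% and 26.4%. The call of at least 2-fold lower was lost in ins-led cells without letter A, C or E (ratios 0.779, 0.626 and 0.554) and in sst1.1-led cells without letter B, C or E (0.545, 0.593 and 0.657). Other settings lost it too, among them thinning in ins-led cells (0.506) and the cells the authors kept in sst1.1-led cells (0.552), and over all alternatives the ratio ran from 0.245 to 0.779 in ins-led and from 0.248 to 0.657 in sst1.1-led cells.

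Differences in share of at least 20 points were counted in the same way. In ins-led cells sqstm1, gclc and gpx4a were higher (beside 2.71% of genes) and none lower (beside 1.02%). In sst1.1-led cells sqstm1 and keap1a were higher (beside 2.83%) and nfe2l2a lower (beside 1.67%). In sst1.2-led cells sqstm1, keap1a, gclc and nfe2l2a were higher (beside 9.17%) and none lower (beside 1.62%). In cells with no leading hormone sqstm1 and keap1a were higher (beside 4.23%) and none lower (beside 3.28%).

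**Figure D3:**
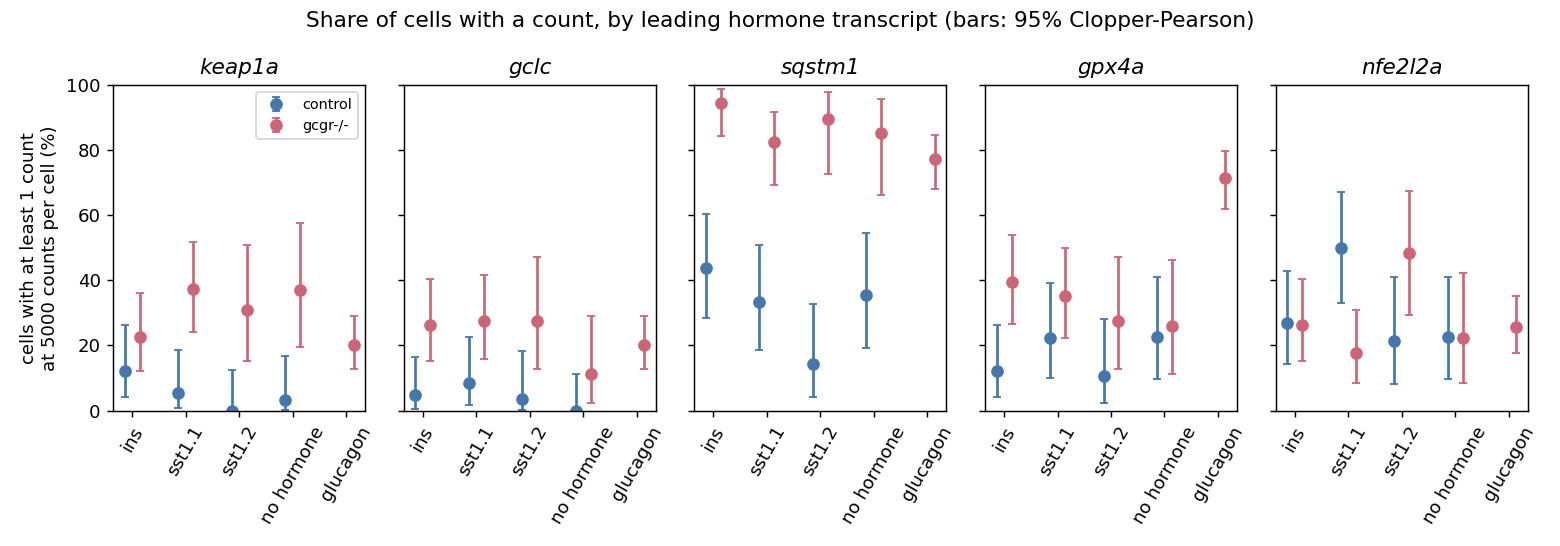
Share of cells with at least 1 count after each cell was thinned to 5000 counts, in percent, for 5 genes by leading hormone transcript, with 95% Clopper-Pearson intervals. The control is not drawn for glucagon-led cells, of which it had 3. Over the 4 kinds drawn for both genotypes the sqstm1 points lie at 14.3% to 43.9% in the control and at 82.4% to 94.3% in gcgr-/-. The gpx4a point reaches 71.4% in glucagon-led gcgr-/- cells.

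Within gcgr-/- the members were not highest in the same kind of cell. gpx4a stood out in glucagon-led cells, at 689 CPM against 184 CPM in all other gcgr-/- cells, 3.74-fold higher (3.49 to 4.01), and was counted in 71.4% of glucagon-led cells against 32.2% of the others after thinning. By prefix its level in glucagon-led cells ran from 161 to 1588 CPM with a median of 667 CPM, and in the other cells from 30.4 to 369 CPM with a median of 163 CPM. Glucagon-led cells were the higher ones under 16 of 16 prefixes, which held for 0.0654% of the 7643 genes with at least 50 counts in gcgr-/- (5 genes), while 18.4% of those genes were at least 2-fold higher in glucagon-led cells. This comparison lies within gcgr-/- cells alone, so whether it depends on genotype could not be seen. Each prefix held 2 to 12 glucagon-led cells. The members were listed for their difference between genotypes, and gcgr-/- held 106 glucagon-led cells against 3 in the control. That listing could favour a gene that is high in glucagon-led cells.

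Over the gcgr-/- kinds with at least 10 cells the order of gpx4a levels was glucagon-led (689 CPM), ins-led (231 CPM), sst1.1-led (209.9 CPM), no leading hormone (175 CPM), sst1.2-led (149 CPM) and ghrl-led (57.9 CPM). The counting intervals of ins-led and sst1.1-led cells overlapped, as did those of sst1.1-led cells and cells with no leading hormone, and those of the latter and sst1.2-led cells. In the control the 3 glucagon-led cells held 38 gpx4a counts, of which 1 cell held 71.1%. The difference of gpx4a over all cells therefore includes both the ratios within kinds given above and the 106 glucagon-led cells of gcgr-/-.

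**Figure D4:**
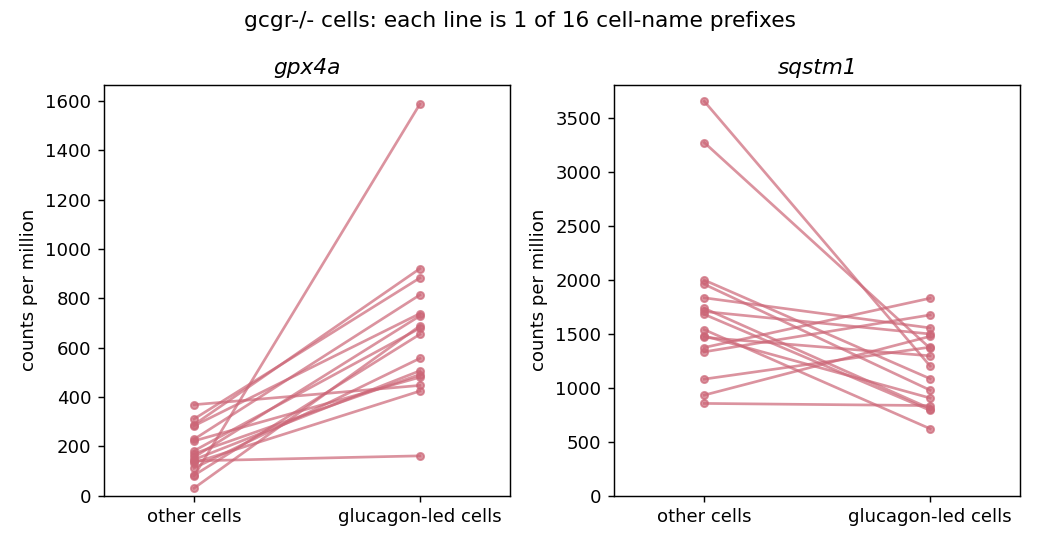
gpx4a and sqstm1 in CPM (linear axes from 0) in glucagon-led cells and in all other cells of each gcgr-/- prefix, joined by a line. gpx4a was higher in glucagon-led cells under 16 of 16 prefixes, with medians of 667 and 163 CPM, whereas sqstm1 was higher there under 4 of 16.

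Among kinds with at least 10 cells sqstm1 was highest in ins-led cells in both samples. In gcgr-/- it stood at 2253 CPM there against 1312 CPM in the other cells, 1.72-fold higher (1.66 to 1.78) and higher under 13 of 15 prefixes. The share of all genes with such values was not taken for ins-led gcgr-/- cells. In the control sqstm1 stood at 378 CPM in ins-led cells against 123 CPM, 3.08-fold higher (2.70 to 3.51) and higher under 8 of 8 prefixes, as for 0.0581% of 5165 genes (3 genes). A single control ins-led cell held 30.3% of the sqstm1 counts of that kind, and some control prefixes held only 2 ins-led cells. The other gcgr-/- kinds with at least 10 cells followed at 2033 CPM (ghrl-led), 1607 CPM (sst1.2-led), 1362 CPM (no leading hormone), 1225 CPM (glucagon-led) and 1193 CPM (sst1.1-led), and the counting intervals of the last pair overlapped. Glucagon-led cells had the lowest thinned share of these gcgr-/- kinds, 77.1%, against 88.3% in all other cells.

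In gcgr-/- keap1a was higher in sst1.1-led cells than in the others, at 197 against 89.1 CPM, 2.21-fold (1.92 to 2.53), and higher under 11 of 15 prefixes, beside 21.3% of genes at least 2-fold higher in that kind. Letter F held 139 of its 296 counts there. nfe2l2a was higher in sst1.2-led gcgr-/- cells, at 323 against 169 CPM, 1.90-fold (1.71 to 2.12), and higher under 10 of 14 prefixes. The share of all genes was not taken for these nfe2l2a values or for the prefix count of keap1a, so nothing is read from them.

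Whether the members were raised in the same cells was described with keap1a, nfe2l2a, gclc, sqstm1 and gpx4a, on counts thinned to 5000 per cell. Over 285 gcgr-/- cells the 10 pairwise Spearman correlations had a median of 0.044 and ran from -0.112 (sqstm1 with gpx4a) to 0.132 (gclc with sqstm1). For comparison, each of these 5 genes correlated with 2062 other genes at a median of 0.006 to 0.019, with 95th percentiles of 0.113 to 0.137. Cells share prefix and base composition, and counts were sparse, so these values carry no test and the weak correlations are no finding. keap1a and gclc were counted together in 22 cells where the product of their shares gives 16.6, and gclc and sqstm1 in 59 where it gives 53.1. sqstm1 and gpx4a were counted together in 104 cells where the product gives 112.

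Taking the 5 genes at once, 91 gcgr-/- cells had counts of at least 3 of them, where the product of the shares gives 90.6. All 5 were counted in 6 cells, where the product gives 1.85, and 5 of those 6 cells were glucagon-led. In the control 5 of 155 cells had counts of at least 3, where the product gives 5.55. Within gcgr-/- the sst1.1-led cells had the widest gap, with 21 of 51 cells at 3 or more genes where the product gives 14.8, and fewer cells than the product were seen in glucagon-led cells (32 against 35.3), sst1.2-led cells (10 against 11.0) and cells with no leading hormone (5 against 5.74).

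**Figure D5:**
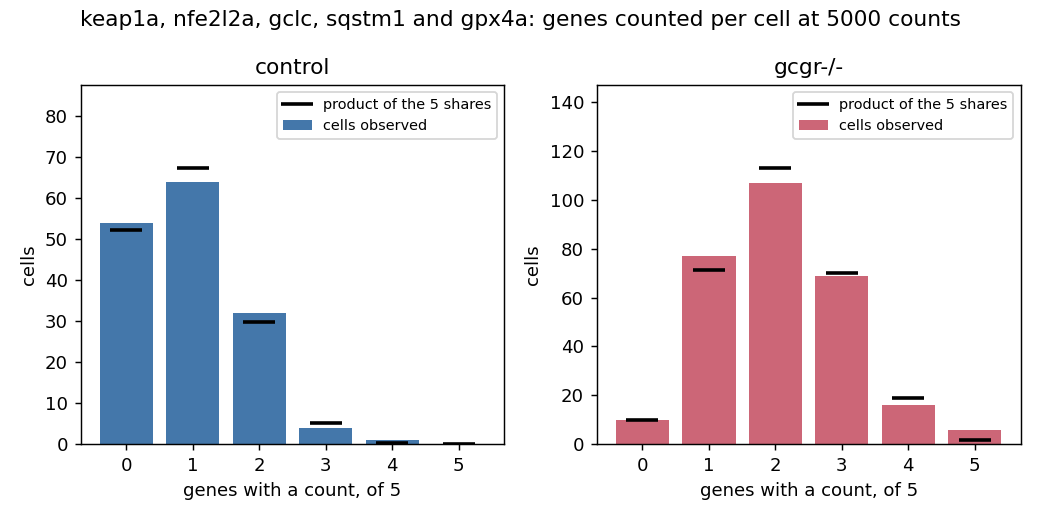
Number of cells by how many of keap1a, nfe2l2a, gclc, sqstm1 and gpx4a had a count at 5000 counts per cell, in the control (155 cells) and gcgr-/- (285 cells). Bars are observed cells, and black marks are the number that the product of the 5 shares gives. In gcgr-/- the most frequent number was 2 genes, in 107 cells, and in the control 1 gene, in 64 cells.

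The other genes of the pathway were taken from fixed lists and described over all cells, beside the 30.8% of genes at least 2-fold higher and 21.7% at least 2-fold lower. Of the genes named below from these lists, ddit3 and atf3 were named by a rule on the size of their difference in share, and the others after their values were seen. Many list genes were counted in few cells, so a call can rest on a few of them. Of 18 sensor and partner genes 9 reached 50 counts, and keap1a, keap1b, mafga and bach1b were higher and none lower. bach1b, an ortholog of a repressor that competes with Nrf2 for its DNA sites in mammals, went from 4.62 to 152 CPM and from 1.29% to 17.9% of thinned cells. mafga, a small Maf partner, had 0 counts in the control and 5.45 CPM in gcgr-/-, where only 0.702% of thinned cells had a count.

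Of 10 genes of glutathione synthesis 6 reached 50 counts, and gclc alone was higher and none lower. Among 18 glutathione transferases 12 were measured, and none was higher and 4 were lower, with gstm.3 from 136 to 4.18 CPM, gstm.1 from 41.6 to 6.71 CPM, mgst2 from 13.4 to 3.40 CPM and gstt1b from 8.61 to 1.75 CPM. Few cells carried these 4 calls. The thinned shares, control first, were 8.39% and 0.702% for gstm.3 and 6.45% and 1.75% for gstm.1. They were 2.58% and 1.05% for mgst2 and 0.645% and 0.351% for gstt1b. Glutathione transferases attach glutathione to electrophiles, and many of their genes are Nrf2 targets in mammals. Of 19 peroxidases and related enzymes 14 were measured, and gpx1b, gpx3, gpx4a and prdx1 were higher while prdx6 was lower, from 76.3 to 26.2 CPM. The paralog of gpx4a, gpx4b, did not rise with it: it went from 302.7 to 248.5 CPM, a ratio of 0.821 (0.769 to 0.876).

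Among 12 thioredoxin genes 10 were in the tables and 6 were measured, with txn (26.0 to 131 CPM), txn2 and txnrd3 higher and glrx3 lower (105.0 to 51.0 CPM). Of 10 genes that supply NADPH 7 were measured, with idh1 (14.9 to 124 CPM) and tkta higher and pgd and me2 lower. Thinned shares in gcgr-/- were only 1.05% for txn2 and 0.351% for tkta. Of 9 genes for heme and quinones 5 were measured, and the biliverdin reductases blvra and blvrb were higher and none lower. The autophagy receptors had 12 of 13 measured with 6 higher and 1 lower, the lower one being calcoco1a. Beside sqstm1 the higher ones were nbr1a, nbr1b, optn, map1lc3a and map1lc3b. Their gcgr-/- levels, at most 68.2 CPM, are not compared with that of sqstm1.

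The amino acid stress list had 8 of 9 genes measured, with ddit3, trib3, sesn2, ddit4 and atf3 higher and none lower. ddit3, which encodes the stress factor Chop, went from 161 to 654 CPM, 4.07-fold (3.77 to 4.39), and from 29.7% to 57.9% of thinned cells. atf3, a stress-induced factor of the same network, went from 238 to 1035 CPM, 4.35-fold (4.09 to 4.63), and from 25.8% to 60%. Both were higher in each of the 4 kinds, by 3.37-fold to 8.93-fold for ddit3 and by 2.54-fold to 9.72-fold for atf3.

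Over the 10 groups of sample and kind with at least 10 cells, the genes most like keap1a on the scale log2(CPM + 10) were adrm1 (Pearson r = 0.941), klf11b (0.909), irf7 (0.908), zbtb7a (0.905) and rassf1 (0.904). Those most like sqstm1 were rassf1 (0.972), zfand5b (0.956), smarca2 (0.944), jmjd1cb (0.936) and eif5b (0.928). They were picked from 9124 genes, the groups of 1 sample share letters, prefixes and genotype, and the values are a description. Without the group of 12 ghrl-led cells, 1 of these 5 genes stayed among the 5 most like keap1a and 3 of 5 among those most like sqstm1, a setting chosen after seeing the data.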

How the data were processed

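Single-cell 3′ libraries were made with a modified Smart-seq2 protocol from GFP-positive islet cells of 2 samples, 1 per genotype. According to the methods and the submitters' processing notes, the authors used Trim Galore for trimming, STAR for alignment to GRCz11, and featureCounts for the coding features, with versions not given in the sources used here. The deposited tables hold unnormalized counts of reads, genes by cells. Primers held molecular identifiers, but their collapsing is not stated, so PCR copies may be counted. Dates stood in place of 17 gene names in the control file, and genes were joined by row. The tables of cells that the authors kept were used only for their cell names.

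Counts were summed per sample and kind and scaled to CPM. Ratios have exact conditional 95% intervals, and shares Clopper-Pearson 95% intervals. Cells were thinned to 5000 counts without replacement (seed 1), which left out 1 control and 3 gcgr-/- cells. A 0 was set to a floor of 3 counts for ratios, so such ratios are not lower limits. Genes needed 50 counts over both samples, or over 1 sample within it. A ratio past 2-fold or a share difference of 20 points was called. With 1 sample per genotype no test was possible. The members and lists, markers included, were chosen with earlier results of these data known, and doublets were not called. Genes named by rule were the 10 members, list genes whose share differed by 20 points, and the 5 genes most like keap1a and sqstm1. Other list genes were named after their values were seen. Thioredoxin reductases listed as txnrd1 and txnrd2, and hmox1b, were not analysed here. Scripts were tested on simulated data and used Python 3.11.15, numpy 2.4.6, pandas 2.3.3, scipy 1.17.1 and matplotlib 3.10.9. Alternatives for level, depth, cell filter, letter, hormone limit, fold and minimum count are in the closing section.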

Additional observations from a re-analysis of the deposited data

Results flagged for a closer look

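The share of cells with an nfe2l2a count differed between genotypes in opposite directions in 2 kinds of cell, by -32.4 percentage points in sst1.1-led cells and by 26.8 points in sst1.2-led cells (gcgr-/- minus control, thinned to 5000 counts). How many of all genes have letters that separate by share within a kind was not counted, so the letters are not read as a result. The difference between the kinds was not tested, since each rests on 1 sample per genotype.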

How the results depend on the processing

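No paired analysis was possible because each genotype has 1 sample. Counts of members at least 2-fold higher moved by over 1.5 times in these settings. In cells with no leading hormone the count of 5 became 3 with at least 750 genes per cell and 3 without letter F. In sst1.1-led cells 5 became 3 in the cells the authors kept and 3 without cells holding epithelial transcripts, a setting chosen after seeing the data. In sst1.2-led cells 5 became 1 in the kept cells. There the ratios of all 5 genes, against the floor where the control had 0 counts, were still above 2-fold (6.33 to 59.5). All of these genes except sqstm1 had under 50 counts. In ins-led cells 4 became 2 without letter C. Ins-led cells gave no value for kept cells, since no control cell of that kind was kept. Cells with no leading hormone gave no value without cells holding epithelial transcripts, since too few control cells were left. With thinning to 2500 counts, the members at least 20 points higher went from 3 to 1 in ins-led cells and from 2 to 1 in cells with no leading hormone. Without thinning, the median correlation in gcgr-/- was 0.160 instead of 0.044. The prdx1 ratio in cells with no leading hormone reversed from 4.44 to 0.501 without letter C. The cause of these changes was not tested. The other 113 values for counts of higher members and for the median correlations stayed within 1.5 times or within their spread. Counts of lower members, 0 or 1 in each kind, did not hold in this way: the ins-led and sst1.1-led count of 1 (nfe2l2a) became 0, and the no-hormone count of 0 became 1, under several settings, thinning among them for each kind. Among the ratios of single members, their share differences and the counts of lower members, 201 values moved, 1 reversed and 558 stayed. A ratio was taken as moved where it left its own counting interval. hmox1a, slc7a11, gclm and keap1b had few counts or none, which limits their precision.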
